A study of Mus musculus with 9 samples.

Results

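The nuclear genes for subunits of the oxidative phosphorylation enzymes were examined in RNA of mouse testis. They were taken as the protein-coding genes whose symbols name a subunit of complex I (Ndufa, Ndufb, Ndufc, Ndufs and Ndufv with a number), complex II (Sdha to Sdhd), complex III (Uqcr), complex IV (Cox4 to Cox8) or complex V (Atp5). This rule, which uses no measured value, found 85 of the 55401 genes in the count table. Complex I had 37 of them, complex II 4, complex III 8, complex IV 18 and complex V 18. Atp5s is included by its symbol although its product is not a structural subunit of the ATP synthase, and Atp5o occurs as 2 gene entries.

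All 9 libraries came from polyadenylated RNA of testes of wild-type animals, which the methods describe as ICR mice without giving their age or saying whether animals were pooled. The 3 input libraries held unselected poly(A) RNA, the 3 IgG libraries RNA recovered on beads with a rabbit control antibody, and the 3 acRIP libraries RNA recovered with an antibody against N4-acetylcytidine (ac4C), an acetylated form of cytidine in RNA. A polyadenylated beta-globin RNA carrying ac4C was added to the RNA, and libraries were built by Smart-seq2, which primes on poly(A) and amplifies full-length cDNA. No text says whether the libraries of a group came from separate mice or separate precipitations, so p-values measure only the spread between these libraries, which may be technical. Total counts ranged from 22023925 to 31340090 in input, from 14647542 to 18786779 in IgG and from 16025779 to 18639134 in acRIP. Counts were found on 28552 to 29642 genes in input, on 26204 to 26874 in IgG and on 22206 to 22402 in acRIP. Germ cell markers summed to 7095 to 8596 CPM (counts scaled to each library's total) in input and to 8550 to 9711 in acRIP. Against input, 3 of the 7 rose in acRIP and 4 fell (Ddx4, Sycp3, Dazl and Acr). The 5 Sertoli cell markers summed to 38.7 to 41.2 CPM in input and 50.7 to 59.6 CPM in acRIP. Of these, 3 were tested, and all 3 were higher in acRIP than in input. Against IgG, 1 was higher and 2 were lower. Rhox5, another of the 5, was at 3 counts or fewer in every library. All 3 macrophage markers were lower in acRIP than in IgG by edgeR, with a summed 10.8 to 14.9 CPM in IgG and 1.12 to 2.704 CPM in acRIP. The 3 erythrocyte markers counted summed to 14.3 to 16.3 CPM in IgG and 1.90 to 2.32 CPM in acRIP. The part of these markers in the results was not tested.

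Oxidative phosphorylation takes place in the inner mitochondrial membrane. Complexes I and II pass electrons from NADH and succinate to ubiquinone, complex III passes them to cytochrome c and complex IV to oxygen, and complex V makes ATP from the proton gradient. Most subunits are encoded in the nucleus and the rest in the mitochondrial genome, and several subunits of complex IV have forms for particular tissues. Testis germ cells are known for their own cytochrome c (Cyct) and for the complex IV forms Cox6b2, Cox7b2 and Cox8c.

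The study named a C-rich sequence of 8 bases as preferred in acetylated testis mRNA, and the principal transcripts of the 85 genes (GENCODE vM21) were searched for it. Read 5′ to 3′ on the transcript strand, it is C, then A, C or T, then CAG, then C or G, then A, C or T, then C. It occurred in 31 of the 85 transcripts (36.5%) and in 77.8% of the 15504 tested nuclear protein-coding transcripts. The transcripts of these genes were short, with a median of 765 bases against 2855, and the difference was smaller per length, with 0.622 matches per kilobase against 0.756. Of the 57 matches, 8 were in 5′ untranslated regions, 25 in coding sequence and 24 in 3′ untranslated regions. The following windows of 30 bases (mm10) show matches in capitals in 4 members whose acRIP level passed as higher against IgG and against input (Cox8c, Cox6a1, Atp5e and Sdhc), in 3 that were lower than in both (Ndufa9, Uqcrc2 and Atp5b) and in 1 that passed neither test (Cox8a).
Cox8c, coding sequence in exon 1, chr12:102899426-102899455, plus strand: aagcctggccaCCCAGGCCgcctcagccac
Cox6a1, 3′ untranslated region in exon 3, chr5:115345790-115345819, minus strand: aacaaagggacCACAGCACtggttttggac
Atp5e, 5′ untranslated region in exon 1, chr2:174464067-174464096, minus strand: cccttccgctaCTCAGGCCtgaccttcctg
Sdhc, coding sequence in exon 6, chr1:171129856-171129885, minus strand: cctggcaatacCCCAGGTCtggctgtctgg
Ndufa9, 3′ untranslated region in exon 11, chr6:126821995-126822024, minus strand: tattagtgtcaCCCAGGTCacctgtgtgca
Uqcrc2, coding sequence in exon 6, chr7:120643048-120643077, plus strand: ctcaatgtcacCACAGCACccgagtttcgc
Atp5b, coding sequence in exon 1, chr10:128083373-128083402, plus strand: ccttgcggggaCTCAGCCCttcggcggctc
Cox8a, coding sequence in exon 1, chr19:7217424-7217453, minus strand: ggtgccgcgggCTCAGGTCcactcgaagcc
A match is only a match of letters, and the same letters stood in transcripts that moved in opposite directions.

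Most of the subunit mRNAs were abundant in testis input. Levels between genes are given as FPKM, counts per kilobase of merged exons and scaled to the library's total. Of the 85 genes, 30 reached 100 FPKM or more in input, 43 lay between 10 and 100, 3 between 1 and 10 and 9 below 1, with a median of 74.5 FPKM. Among those 9 are genes with near-identical copies elsewhere in the genome, such as Atp5g2 and Atp5l, so not all can be read as low expression. Together they took 1.35 to 1.44% of all input counts, 1.57 to 1.598% of IgG counts and 1.597 to 1.65% of acRIP counts. The share of complex IV differed between the groups, with 0.365 to 0.404% of counts in input, 0.487 to 0.496% in IgG and 0.535 to 0.558% in acRIP. Complex II went the other way, with 0.0733 to 0.0748% in input, 0.0635 to 0.0651% in IgG and 0.0534 to 0.0572% in acRIP. The 10 most abundant members held 40.5 to 40.9% of the members' counts in input.

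Within complex IV, the testis forms stood far above their ubiquitous partners. Cox8c, the testis form of a small membrane subunit, was the most abundant member, with 1499, 1436 and 1360 FPKM in input, 2149, 2171 and 2165 in IgG and 2383, 2477 and 2360 in acRIP. Its partner Cox8a had 74.0, 64.8 and 60.6 FPKM in input and 60.6 to 76.5 FPKM over all 9 libraries. The ratio of Cox8c to Cox8a was 21.6 ± 1.19 in input, 30.4 ± 2.12 in IgG and 36.0 ± 1.80 in acRIP (mean ± SD, n = 3), and the 3 groups did not overlap.

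Cox7b2 stood at 875, 865 and 849 FPKM in input, against 20.9, 19.4 and 22.6 FPKM for its X-linked partner Cox7b. That ratio was 41.3 ± 3.49 in input, 85.5 ± 8.78 in IgG and 61.3 ± 1.99 in acRIP (mean ± SD, n = 3), so that IgG was highest. Cox6b2 had 343, 306 and 278 FPKM in input and its partner Cox6b1 had 67.6, 62.7 and 58.4, a ratio of 4.91 ± 0.158 (mean ± SD, n = 3). With the principal transcript's length in place of merged exons, the input ratios were 19.2 for Cox8c, 34.04 for Cox7b2 and 8.11 for Cox6b2. These 3 testis forms held 38.1 to 38.2% of the complex IV counts in input, 46.0 to 46.6% in IgG and 43.0 to 43.5% in acRIP.

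The forms known from lung, muscle and heart were low or uncounted. Cox4i2, the form of subunit 4 known from lung, had 12, 13 and 4 counts in input and 0.488 FPKM on average, against 425 FPKM for Cox4i1. Cox6a2, the heart and muscle form, had 14, 5 and 4 counts in input and 0.419 FPKM, against 356 FPKM for Cox6a1. Cox7a1, likewise a heart and muscle form, had 5.17 FPKM against 705 for Cox7a2, and Cox8b had 0 counts in all 9 libraries, which allows up to 3 counts in each.

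For cytochrome c, the carrier between complexes III and IV, the testis form had the higher level by uniquely mapped reads. Cyct had 247 ± 8.01 FPKM and Cycs 2.37 ± 0.0810 FPKM in input (mean ± SD, n = 3). The ratio was 104 ± 6.77 in input, and its spread was wider in IgG, at 140 ± 44.3. Whether either gene has near-identical copies elsewhere in the genome was not examined. Reads shared with such copies would not be counted, so the level of Cycs and this ratio are uncertain. In bulk RNA of a whole testis, a high level in few cells and a low level in many cannot be told apart.

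**Figure D1:**
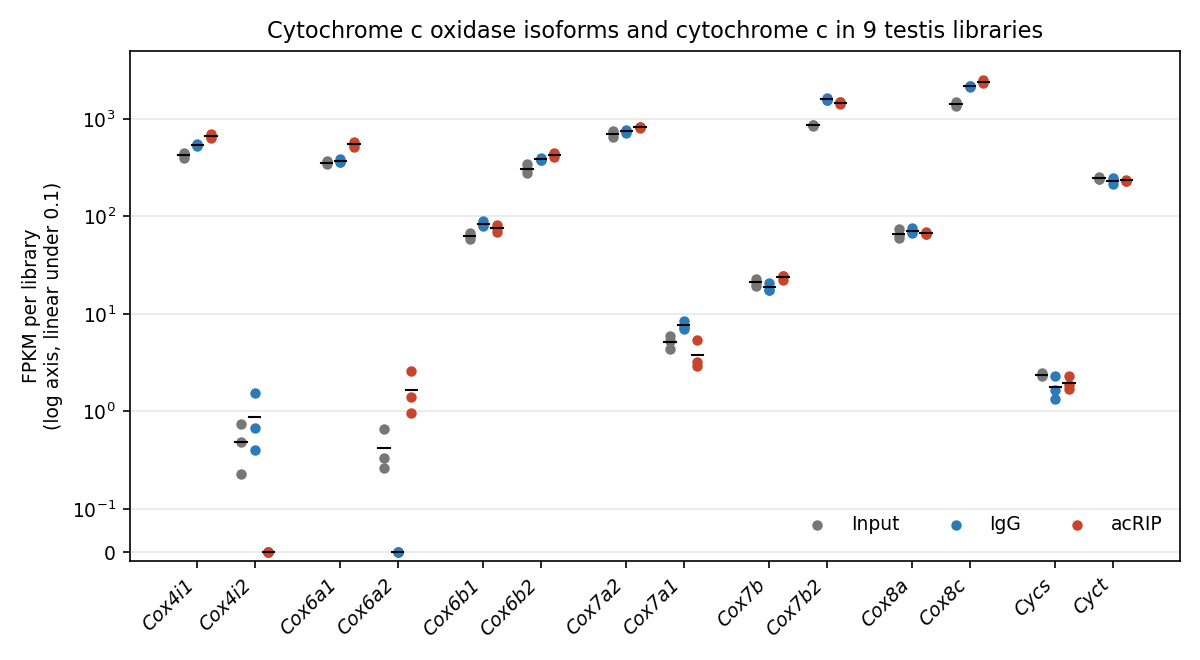
FPKM of cytochrome c oxidase forms and of cytochrome c in each of the 9 libraries (log axis, linear below 0.1), with neighbouring pairs showing a ubiquitous and a tissue form; points are libraries and bars group means (n = 3). Cox8c lay at 1360 FPKM or more and Cox8a at 76.5 FPKM or less in every library, and Cox4i2 was at 0 in acRIP and Cox6a2 at 0 in IgG.

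Among the other complexes, the most abundant mRNAs in input were Ndufa2 (374 ± 5.71 FPKM) and Ndufv2 (305 ± 2.79 FPKM) of complex I, Sdhb (153 ± 2.21 FPKM) and Sdhd (73.6 ± 2.83 FPKM) of complex II, and Uqcr10 (386 ± 28.7 FPKM) and Uqcrq (308 ± 25.9 FPKM) of complex III. In complex V they were Atp5b, the catalytic beta subunit (224 ± 3.65 FPKM), and Atp5mpl, a small membrane subunit (214.5 ± 8.93 FPKM; all values mean ± SD, n = 3). The 3 genes for the c subunit of the proton channel had 41.6 FPKM for Atp5g3, 3.74 for Atp5g1 and 0.465 for Atp5g2 in input by uniquely mapped reads. Copies elsewhere on the chromosomes, at 98% identity or more, covered 89.2% of the Atp5g2 transcript, 27.9% of Atp5g1 and none of Atp5g3. Reads shared with such copies would not be counted, so the difference in level is uncertain. Ndufa4, now counted as a part of complex IV, had 47.7 FPKM and its homologue Ndufa4l2 20.9 FPKM.

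Genes for 3 major subunits had almost no counts in any library. Ndufs3, a core subunit of complex I, had 0 counts in 7 libraries and 1 count each in IgG libraries 2 and 3. Uqcrc1, a core subunit of complex III, had at most 2 counts in a library. Atp5a1, the alpha subunit of the ATP synthase, had 12 counts in input library 1, 8 in IgG library 2 and 0 in the other 7, beside 223.7 FPKM in input for Atp5b, with which it forms the catalytic head in equal numbers. Their transcripts had near-identical copies, at 98% identity or more over at least 100 bases, on fix-patch scaffolds, which are corrected sequences issued with later releases of the mm10 assembly. These copies covered 93.8% of the Ndufs3 transcript, 75.5% of Uqcrc1 and 96.9% of Atp5a1. Ndufs3 also had a near-identical copy elsewhere on the chromosomes, over 84.4% of its transcript, whereas Uqcrc1 and Atp5a1 had none.

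Of the 257 protein-coding genes with a copy on a fix-patch scaffold, 225 (87.55%) had 3 counts or fewer in every library, against 2890 of 20211 (14.3%) without one. On the scaffold that holds Atp5a1, all 6 other protein-coding genes were at 3 counts or fewer, and 4 of 5 were so on each of those that hold Ndufs3 and Uqcrc1. Whether the authors' index held these scaffolds was not tested, and the low counts of these 3 genes were not read as low expression. The second Atp5o entry, which shares all its exons with other genes, also had 0 counts in every library.

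**Figure D2:**
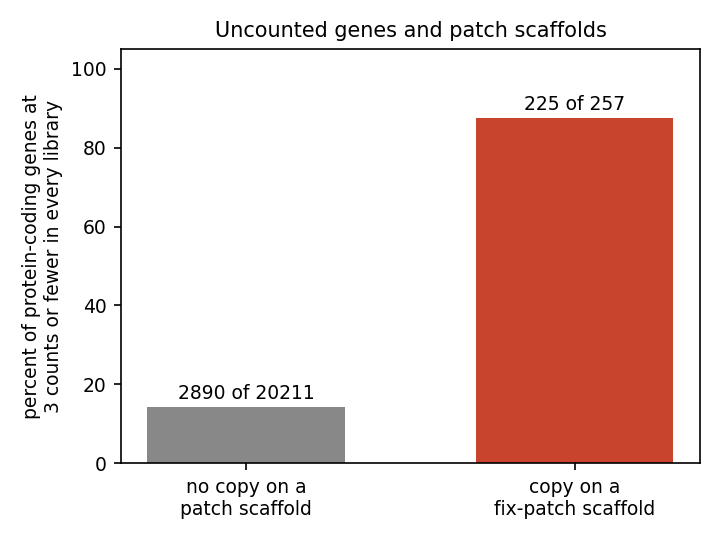
Percent of mouse protein-coding genes (vertical axis) with 3 counts or fewer in each of the 9 libraries, for genes without a copy on a patch scaffold and genes with a copy on a fix-patch scaffold; numbers above the bars give genes at 3 counts or fewer of all in the class. The bar is at 14.3% for genes without a copy and at 87.55% for genes with one, and Ndufs3 and Uqcrc1 are among the latter.

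Of the 85 genes, 80 passed the filter on low counts and were tested, and the 5 others were Ndufs3, Uqcrc1, Atp5a1, Cox8b and the second Atp5o. Fold changes are log2 values ± SE from edgeR's quasi-likelihood test over all 9 libraries, adjusted p-values are by Benjamini-Hochberg over 22510 genes, and a gene passed at an adjusted p under 0.05. The 3 comparisons share libraries, so each one's values are given side by side and are not independent of the others. Some members share reads with copies elsewhere on the chromosomes: at least 50% of the transcript was repeated at 98% identity or more in 11 of the 85, among them Cox7a2l (99.5%), Uqcrb (90.5%), Atp5g2 (89.2%), Atp5l (86.9%), Uqcr11 (85.4%), Ndufs3 (84.4%) and Cox7c (74.1%). With uniquely mapped reads only, their counts are uncertain. So are those of Ndufa13 and Ndufb6, which overlap a gene on the opposite strand over 29.98% and 39.0% of their exons, since the use of strand is not stated.

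The comparison of acRIP with IgG asks which genes held a larger share of counts with the ac4C antibody than with control beads. It compares shares and not amounts. Per the methods, the recovered RNA was too scarce to quantify and a fixed volume of it was amplified. A fold change near 0 therefore does not show equal recovery. Here 35 of the 80 tested members (43.8%) were higher in acRIP, 20 were lower and 25 did not pass, with a median log2 fold change of 0.09. Over all 22510 tested genes, 26.4% were higher and 37.6% lower, with a median of -0.09. Changes of the members were small. Only Cox6a2 and Atp5g2 were over 2-fold higher and only Cox4i2 over 2-fold lower, whereas 11.5% of all genes were over 2-fold higher and 20.9% over 2-fold lower. The quartiles of the members' log2 fold changes were -0.11 and 0.26, and those of all genes -0.80 and 0.40.

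The members were also set beside genes of similar abundance. Among the 8230 tested nuclear protein-coding genes at 10 CPM or more in input, 27% rose and 40% fell in acRIP against IgG, with 1.64% over 2-fold higher and 6.31% over 2-fold lower. The 75 members at that level lay between -0.76 (Sdha) and 0.61 (Cox6a1) on the log2 scale, within 2-fold, with 33 of them (44%) higher and 17 (22.7%) lower.

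Complex IV had the highest median against IgG, at 0.20, with 10 of 17 tested members higher and 2 lower. Cox6a1, the ubiquitous form of subunit 6a, had 252, 246 and 233 CPM in input, 254, 251 and 273 in IgG and 369, 420 and 398 in acRIP. All 3 acRIP libraries lay above the other 6, and the log2 fold change was 0.61 ± 0.05 over IgG (adjusted p = 2.6e-12 by edgeR) and 0.70 ± 0.05 over input. Cox4i1, the form of subunit 4 used in most tissues, had 844, 840 and 826 CPM in IgG and 1077, 1118 and 1002 in acRIP, a log2 fold change of 0.35 ± 0.04. Cox6c (0.42 ± 0.05), Cox7b (0.41 ± 0.10) and Cox7c (0.41 ± 0.08) rose by similar amounts over IgG. Cox7c stood at 48.0 to 61.0 CPM in input and at 53.1 to 60.6 CPM in acRIP, and it did not pass against input.

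The abundant testis forms of complex IV lay near the median of the complex against IgG or below it. Cox8c rose with a log2 fold change of 0.20 ± 0.04 over IgG, from 979, 990 and 991 CPM to 1126, 1181 and 1104. Cox6b2 rose by 0.20 ± 0.05, and Cox7b2 had -0.07 ± 0.03 and did not pass. The ubiquitous partners Cox8a (-0.04 ± 0.09) and Cox6b1 (-0.10 ± 0.08) did not pass either. Against input the testis forms had 0.84 ± 0.03 for Cox7b2, 0.83 ± 0.04 for Cox8c and 0.55 ± 0.05 for Cox6b2. The log2 fold change of IgG over input was 0.91 ± 0.03 for Cox7b2, 0.62 ± 0.04 for Cox8c and 0.35 ± 0.05 for Cox6b2.

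Cox6a2 and Cox4i2 gave the largest fitted folds of the members and rest on few counts. Cox6a2 had 28, 18 and 11 counts in acRIP and 0 in each IgG library, which makes it at least 6.64-fold higher against a floor of 3 counts per library (adjusted p = 1.3e-05 by edgeR). Over input, where it had 14, 5 and 4 counts, the log2 fold change was 1.99 ± 0.68 (adjusted p = 0.011), and this call was lost without input library 2 (adjusted p = 0.052), input library 3 (0.057) or acRIP library 1 (0.11). Cox4i2 had 18, 6 and 10 counts in IgG and 0 in each acRIP library. Against the same floor it was at least 3.83-fold lower than in IgG and at least 2.07-fold lower than in input. These bounds use the mean of the other group without its error. Most low counts in these libraries were even numbers (81.9 to 84.3%), and whether both reads of a pair were counted is not stated. If both were, 3 counts stand for fewer than 3 fragments and these minimum folds would be smaller. Cox7a1 fell by 0.95 on the log2 scale against IgG (SE 0.30, adjusted p = 0.0076), with 3.94, 3.71 and 4.52 CPM in IgG and 2.96, 1.79 and 1.58 in acRIP.

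**Figure D3:**
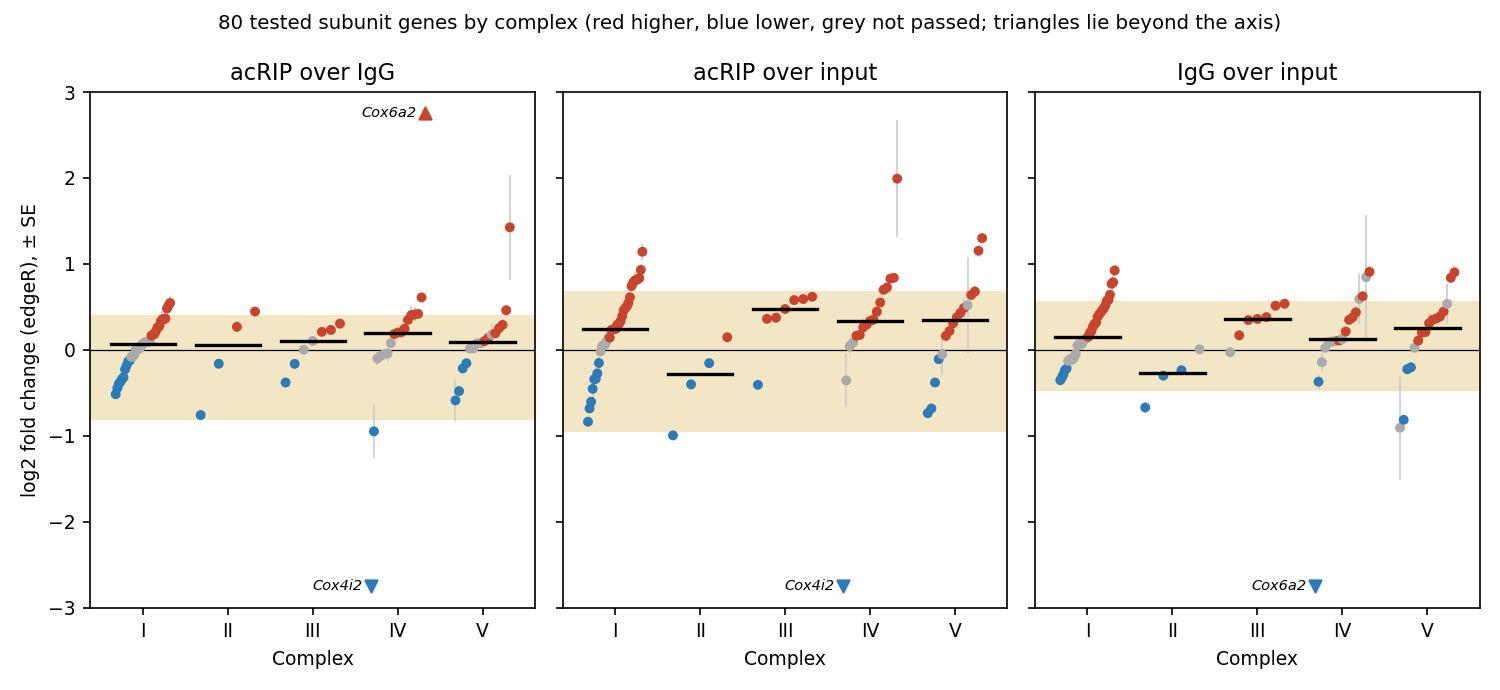
Log2 fold change ± SE of the 80 tested subunit genes by complex in the 3 comparisons (edgeR; red, higher; blue, lower; grey, not passed at an adjusted p of 0.05; triangles, values beyond the axis from groups at 0 counts). Black bars are the medians of each complex and the shaded band spans the quartiles of all 22510 tested genes. Most members lie inside the band against IgG, where complex IV has the highest median (0.20), and complex II has the lowest against input (-0.28).

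Complex I, which takes electrons from NADH, had 13 of 36 tested members higher, 10 lower and 13 not passed in acRIP over IgG, with a median of 0.07. Its 6 tested core subunits, the ones that carry the redox centres, had 1 higher and 4 lower with a median of -0.17. The other 30, accessory subunits around that core together with Ndufa4 and Ndufa4l2, had 12 higher and 6 lower with a median of 0.08. The difference between the core subunits and these 30 was not tested. Ndufs1, the largest core subunit, had 125.5, 122.8 and 133 CPM in input, 97.6, 109 and 98.5 in IgG and 75.3, 69.5 and 69.0 in acRIP. The 3 groups did not overlap, and acRIP fell by 0.52 on the log2 scale against IgG (SE 0.06) and by 0.83 against input (SE 0.06).

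Ndufa9, an accessory subunit, fell by 0.45 against IgG and by 0.68 against input, with 139 to 143 CPM in acRIP and 191 to 193 in IgG. Ndufv2 and Ndufv1, core subunits where NADH is oxidised, fell by 0.32 and 0.23 against IgG. In the opposite direction, Ndufs7, a core subunit with an iron-sulphur centre, had 72.5, 74.99 and 63.5 CPM in IgG and 106, 106 and 90.2 in acRIP, a log2 fold change of 0.52 ± 0.07. The small membrane subunits Ndufc2 (0.55 ± 0.08) and Ndufc1 (0.48 ± 0.06) rose with it. Ndufa4 rose over IgG by 0.19 ± 0.07, while Ndufa4l2 fell by 0.34.

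Complex II, the only complex with no subunit from the mitochondrial genome, was split. Sdha, the flavoprotein that oxidises succinate, had 206, 212 and 225 CPM in input, 177, 184 and 184 in IgG and 99.4, 107 and 115 in acRIP. It fell by 0.76 on the log2 scale against IgG (SE 0.05, adjusted p = 3.5e-13) and by 0.99 against input. Sdhb, the iron-sulphur subunit, fell by 0.16 against IgG, whereas the membrane anchors Sdhc (0.45 ± 0.06) and Sdhd (0.27 ± 0.07) rose. Sdhd nonetheless stood lower in acRIP, at 64.9, 65.3 and 70.7 CPM, than in input, at 92.1, 84.9 and 88.1, and IgG was lowest at 60.0, 51.6 and 55.5. It was the only member that was higher than IgG and lower than input.

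In complex III, 3 of 7 tested members were higher in acRIP than in IgG and 2 lower, with a median of 0.10. Uqcrb rose by 0.31 ± 0.06, Uqcrq by 0.23 ± 0.05 and Uqcrfs1, the Rieske iron-sulphur protein, by 0.21 ± 0.04. Uqcrc2, a core subunit, had 112, 115 and 120 CPM in IgG and 87.2, 88.6 and 91.3 in acRIP, and fell by 0.38 on the log2 scale. Uqcr11 fell by 0.16, and Uqcr10, the most abundant mRNA of the complex, had 0.00 ± 0.05. Uqcrh, the hinge subunit, had 0.10 ± 0.05 and did not pass.

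In complex V, 7 of 16 tested members were higher in acRIP than in IgG and 4 lower, with a median of 0.09. Atp5e, the epsilon subunit of the stalk, had 211, 189 and 170 CPM in input, 358, 334 and 329 in IgG and 488, 500 and 417 in acRIP. It rose over IgG by 0.46 ± 0.06 and over input by 1.30 ± 0.06 on the log2 scale, and the 3 groups did not overlap. Atp5k and Atp5g3, membrane subunits, rose over IgG by 0.25 ± 0.07 and 0.19 ± 0.06, and Atp5mpl by 0.10 ± 0.04. Atp5b, the catalytic beta subunit, fell by 0.15 against IgG and by 0.38 against input. Atp5s, whose product is not a structural subunit, fell by 0.48 against IgG (SE 0.06) and by 0.68 against input (SE 0.06).

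Atp5c1, the central stalk, was at 0.08 ± 0.05 over IgG and did not pass, but fell by 0.74 against input, with 267, 264 and 265 CPM in input, 154, 154 and 145 in IgG and 165, 156 and 157 in acRIP. IgG over input fell by 0.81, so both kinds of precipitate were lower than input. Atp5g2 rose over IgG by 1.43 ± 0.61 (adjusted p = 0.041 by edgeR) on 15, 26 and 14 counts against 6, 4 and 11, and it did not pass against input. That call was lost without input libraries 1 or 2, IgG libraries 1 or 2, or acRIP libraries 1 or 2, with adjusted p-values from 0.050 to 0.16. Atp5l fell by 0.59 against IgG (SE 0.24, adjusted p = 0.034), and that call was lost without IgG library 2 (0.061), IgG library 3 (0.13), acRIP library 1 (0.10) or acRIP library 3 (0.075). It was also lost with DESeq2 (0.056), upper quartile normalisation (0.052), no filter on low counts (0.071), the fit of 6 libraries (0.063) and protein-coding genes only (0.054).

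**Figure D4:**
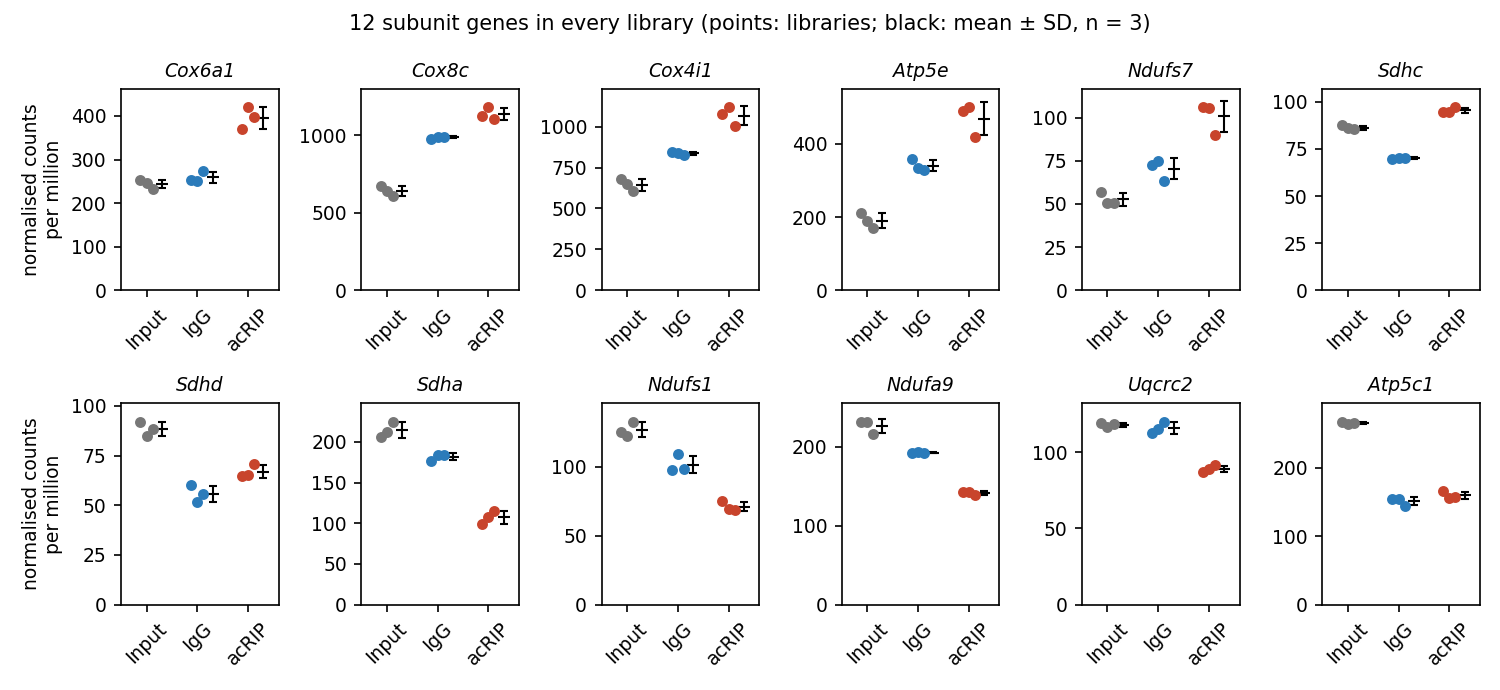
Normalised CPM of 12 subunit genes in each library (vertical axes start at 0), with points for libraries and black marks for the mean ± SD (n = 3). Cox6a1 and Sdhc are highest in acRIP, Sdha and Ndufs1 fall from input through IgG to acRIP, and Sdhd and Atp5c1 are highest in input.

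The comparison of acRIP with input asks which genes the whole procedure enriched, again as a share of counts. Of the 80 members, 52 (65%) were higher in acRIP, 17 were lower and 11 did not pass, with a median of 0.30, against 32% higher, 40.3% lower and a median of -0.10 over all tested genes. Over 2-fold, 4 members were higher (Ndufb2, Atp5k, Atp5e and Cox6a2) and 1 was lower (Cox4i2), against 17.7% and 22.9% of all genes. Among nuclear protein-coding genes at 10 CPM or more in input these shares were 7.59% and 11.9%. For the 75 members at that level they were 4% and 0%. Ndufb2, an accessory subunit of complex I, had 22.2, 19.8 and 19.1 CPM in input and 42.7, 46.9 and 45.6 in acRIP, a log2 fold change of 1.14 ± 0.09. Atp5k had 80.1, 71.0 and 62.9 CPM in input and 162, 173 and 142 in acRIP, a log2 fold change of 1.15 ± 0.07.

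The complexes differed in their medians against input, with 0.48 for complex III (6 higher, 1 lower of 7), 0.34 for complex IV (13 higher, 1 lower of 17), 0.34 for complex V (10 higher, 4 lower of 16), 0.24 for complex I (22 higher, 8 lower of 36) and -0.28 for complex II (1 higher, 3 lower of 4). The 6 tested core subunits of complex I had a median of -0.34 and its 30 other members 0.30. The extremes were Ndufb2 against Ndufs1 in complex I, Uqcrh (0.62 ± 0.05) against Uqcrc2, which fell by 0.41, in complex III, and Atp5e against Atp5c1 in complex V. Among the core subunits of complex I, Ndufs7 was highest (0.93 ± 0.07).

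Control beads without the ac4C antibody also differed from input. In IgG, 41 of the 80 members (51.2%) were higher than in input, 13 were lower and 26 did not pass, with a median of 0.18, against 25.9% higher, 26% lower and a median of -0.01 over all tested genes. The highest log2 fold change of a tested member was 0.92 (Ndufa11), so none reached 2-fold at any p, and DESeq2 likewise gave 0. Only Cox6a2, with 0 counts in IgG, was called over 2-fold lower, and against the floor of 3 counts it was at least 1.59-fold lower. That bound would also be smaller if both reads of a pair were counted. Over all genes 13.5% were over 2-fold higher and 7.22% over 2-fold lower. Among nuclear protein-coding genes at 10 CPM or more in input it was 6.97% and 2.79%. Ndufa11 (0.92 ± 0.07), Cox7b2, Atp5k (0.90 ± 0.07), Atp5e (0.84 ± 0.06), Ndufb2 (0.79 ± 0.09) and Ndufa2 (0.77 ± 0.05) had the highest fold changes among the members that passed in IgG over input. For Ndufa2, acRIP over IgG was 0.01 ± 0.05, and its 369.9, 340.2 and 357.9 CPM in IgG overlapped with 347.2, 388.4 and 341 in acRIP.

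The study defined acetylated transcripts by enrichment over both IgG and input. At an adjusted p under 0.05 in both, acRIP exceeded IgG as well as input for 32 of the 80 members (40%), where the share over all tested genes was 18.2%, and fell below both for 14 (17.5%), where that share was 29%. With the 2-fold limit added, 1 member remained above both, Cox6a2, and the share over all tested genes was 7.88%. That share was not taken among genes of similar abundance. By the ratio of mean FPKM + 1 over 2 against both groups, 0 of the 85 genes qualified, and with a pseudocount of 0.1 there was 1. The same ratios were met by 1.3% and 3.88% of all 55401 genes.

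The recovery of these genes was also set against transcript length. Across the 80 tested members, Spearman's rho between the length of the principal transcript and the log2 fold change was -0.45 for IgG over input, -0.37 for acRIP over input and -0.12 for acRIP over IgG. Pearson's r with log10 length was weaker, at -0.13, -0.19 and -0.05. Across the 15504 tested nuclear protein-coding genes rho was 0.07, 0.02 and -0.04. These are correlations across genes, which share libraries and are not replicates.

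Over input, 25 of the 33 members with transcripts under 700 bases rose in acRIP and 1 fell, with a median of 0.36. Of the 22 members with 1200 bases or more, 9 were higher and 11 lower, with a median of -0.03. Against IgG the medians were 0.10 and -0.09. The long group holds Sdha, Ndufs1, Uqcrc2 and Atp5b, which fell, and also Ndufb2 and Sdhc, which rose. The 30 tested members with the motif had a median of 0.15 over IgG (15 higher, 9 lower) and the 50 without it 0.08 (20 higher, 11 lower), and over input the medians were 0.31 and 0.30.

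**Figure D5:**
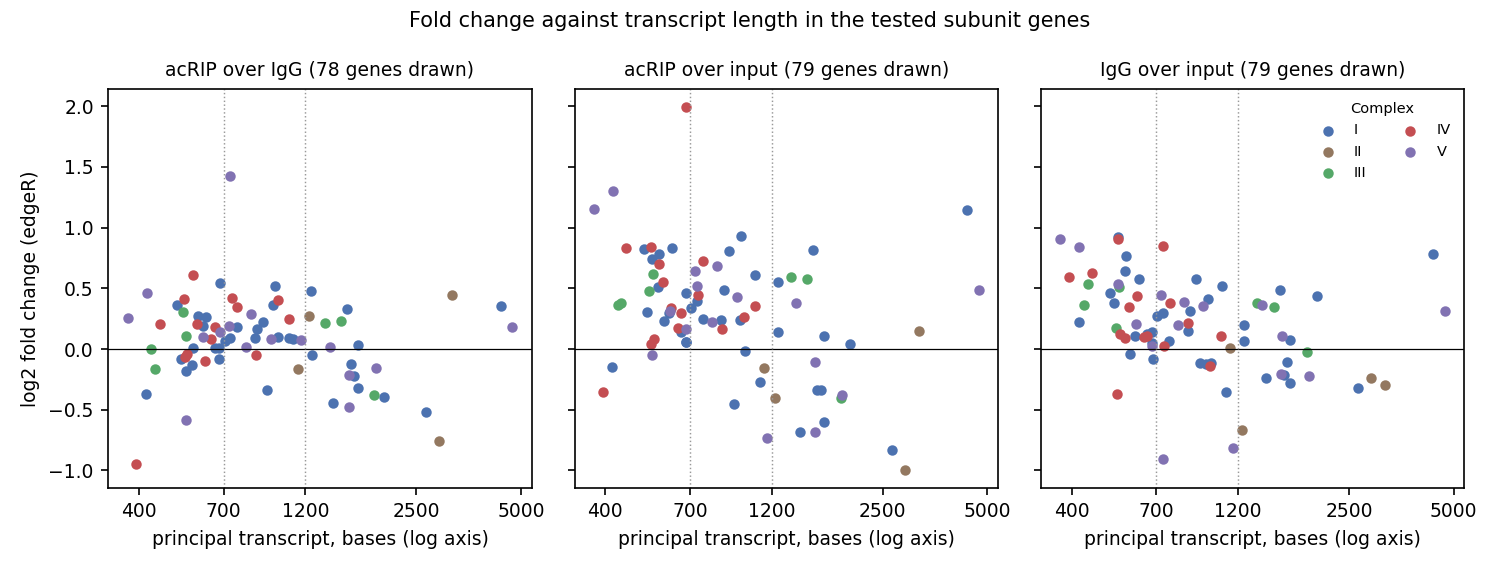
Log2 fold change (edgeR) of the tested subunit genes against the length of the principal transcript in bases (log axis) in the 3 comparisons, coloured by complex; dotted lines mark 700 and 1200 bases, and genes beyond the range shown, all from groups at 0 counts, are left out. Points fall with length in both comparisons with input (rho -0.37 and -0.45), less so in acRIP over IgG (rho -0.12).

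Genes that work with the subunits were counted in the same way. Of the 13 genes of the citric acid cycle, which feeds NADH and succinate to complexes I and II, 9 were lower in acRIP than in input by edgeR and the other 4 did not pass, 1 was higher and 8 lower than in IgG, and 11 were lower in IgG than in input. Over all tested genes, 40.3% were lower in acRIP than in input, 26.4% higher and 37.6% lower than in IgG, and 26% lower in IgG than in input. Idh3b, a subunit of isocitrate dehydrogenase, fell by 0.73 on the log2 scale in acRIP against input. Of 47 tested assembly factors for the 5 complexes, 10 rose and 19 fell in acRIP against IgG, with a median of -0.14. These shares (21.3% and 40.4%) were near those over all tested genes. Against input 13 rose (27.7%) and 17 fell (36.2%). Tmem70, an assembly factor of the ATP synthase, fell by 1.81 against IgG and by 2.18 against input, and Bcs1l, which inserts the Rieske protein into complex III, rose by 1.12 over IgG. Of the 5 respiratory chain genes outside the symbols used, Atpif1, the inhibitor of the ATP synthase, rose by 0.33 ± 0.05 over IgG, Ndufab1, an acyl carrier subunit of complex I, fell by 0.40, and Cyct (0.05 ± 0.05), Cycs and Cyc1 did not pass against IgG.

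Of 10 tested subunit genes of the mitochondrial genome, 1 rose and 3 fell in acRIP against IgG, and 4 rose and 2 fell against input. Over all tested genes, 26.4% rose and 37.6% fell against IgG, and 32% and 40.3% against input. Mt-Co1, the catalytic subunit of complex IV, fell by 0.37 against IgG and by 0.997 against input, whereas mt-Nd5 rose by 0.70 over IgG. Of 9 regulators of mitochondrial genes, 4 rose and 4 fell in acRIP against IgG. Over 2-fold, 3 were higher and 0 lower, where 11.5% and 20.9% of all tested genes were. The 3 were Ppargc1a, Pprc1 and Ppargc1b, with log2 fold changes over IgG of 1.497, 1.377 and 1.035. Ppargc1a rests on few counts, with 12, 22 and 8 in IgG and 30, 42 and 42 in acRIP. Tfam, which packages mitochondrial DNA, rose less, by 0.33 ± 0.05. Gabpb1, a subunit of nuclear respiratory factor GABP, fell by 0.43.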

How the data were processed

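Per the labels and methods, the authors trimmed reads with Trim Galore 0.6.7, aligned them to mm10 with STAR 2.7.10a, kept uniquely mapped reads and counted them per gene with featureCounts 2.0.2. The deposited values are raw counts for 55401 genes. The annotation release, the use of strand and whether reads or pairs were counted are not given in the sources used here. All 85 genes matched GENCODE vM21 by identifier and coordinates.

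Counts were fitted in edgeR 4.0.16 (R 4.3.3; filterByExpr, TMM normalisation, quasi-likelihood test) with 1 mean per group over all 9 libraries, and p-values were adjusted by Benjamini-Hochberg over 22510 genes. CPM used TMM-normalised library sizes, and FPKM used merged exon length and library totals. DESeq2 1.42.0, other normalisations, other filters, fits without each library and a replicate block were alternatives. The script was tested on simulated data. Near-identical copies were found with BLAST 2.17.0. Precision is limited by 3 libraries per group. SDs and SEs measure the spread between libraries, and the floor of 3 counts covers counting error only.

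The genes named were tissue forms and their partners, in each complex the 2 highest and 2 lowest fold changes in each acRIP comparison and the 2 most abundant in input, members over 2-fold higher, and members not tested. Other members named with values were chosen after these were seen. The members and lists were chosen with earlier results of these data known.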

Additional observations from a re-analysis of the deposited data

How the results depend on the processing

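No median of the members changed sign under the alternatives run, and in each comparison more members were higher than lower. The few calls over 2-fold did move, as given below. The median log2 fold change of acRIP over IgG was 0.14 with upper quartile normalisation, 0.041 with library totals and 0.15 with protein-coding genes only. For acRIP over input these were 0.25, 0.22 and 0.34, and for IgG over input upper quartile gave 0.085, library totals 0.15 and members without near-identical copies 0.21. The split of calls also moved: acRIP over IgG had 41 higher and 15 lower members with upper quartile normalisation, 29 and 22 with library totals and 45 and 15 with protein-coding genes only, and IgG over input had 34 and 19 with upper quartile normalisation. In the main fit, calls over 2-fold higher than IgG, over 2-fold lower and over 2-fold higher than both rest on few counts. Those of Ndufb2, Atp5k and Atp5e over input do not. A filter of 1 CPM in 3 libraries, or the filter on low counts applied to halved counts, removed Cox4i2, Cox6a2 and Atp5g2. Members over 2-fold higher than IgG, over 2-fold lower in any comparison and over 2-fold higher than both then numbered 0. These counts of 0 were set by the filter and do not test the calls. The fit of 6 libraries gave 0 over 2-fold lower in each comparison. There the filter likewise removed Cox4i2 from both acRIP comparisons and Cox6a2 from IgG over input. Leaving out members with near-identical copies removed Atp5g2, so members over 2-fold higher than IgG numbered 1. Upper quartile normalisation and library totals gave 2 over 2-fold lower than input. The ratio of FPKM + 1 gave 0 over both. The share of input counts on members was 1.54% of protein-coding counts, against 1.40% of all counts.

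Leaving out 1 library gave 31 to 36 higher, 16 to 20 lower, 1 to 2 over 2-fold higher and 1 to 2 over 2-fold lower for acRIP over IgG, with medians of 0.08 to 0.13. For acRIP over input it gave 45 to 53, 15 to 17, 3 to 5 and 1 to 2, with medians of 0.28 to 0.35. For IgG over input it gave 38 to 42, 13 to 14, 0 and 1, with medians of 0.17 to 0.20. Members higher than both numbered 27 to 32, and 0 to 1 over 2-fold. Without input library 2, input library 3 or acRIP library 1 the last count was 0, as Cox6a2 no longer passed over input. Cox7a1 was also over 2-fold lower than IgG without IgG library 2 or acRIP library 1, and a member other than Cox4i2, Sdha, was over 2-fold lower than input without input library 1, input library 2 or acRIP library 3.

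Libraries with the same number did not deviate together, with correlations of -0.01 to 0.08, so they were not taken as paired. With a replicate block, 34 members rose and 20 fell against IgG, with 1 over 2-fold higher, since Atp5g2 no longer passed (adjusted p = 0.080 by edgeR). Depth limits Cox4i2, Cox6a2 and Atp5g2, which had at most 28 counts in a library.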
